A study of Mus musculus with 10 samples.

Results

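Translation initiation factor genes were taken as every protein-coding gene whose symbol starts with Eif, from the factors of start codon scanning to eIF6, with the eIF2 alpha kinases and the eIF4E-binding proteins included. This gave 55 genes of the 55536 in the count table, 22028 of which are protein-coding. A further 10 processed pseudogenes and 1 lincRNA with such a symbol were left out. RNA was sequenced from female mouse germ cells at E14.5, in embryonic days, sorted from fetal gonads by an Oct4-EGFP transgene that all 10 libraries carry. The groups were 4 Taf4b-deficient, 4 Taf4b-heterozygous and 2 Taf4b-wildtype libraries on a C57BL/6 label, from matings between Taf4b heterozygotes homozygous for the transgene. Litter dates in 2019 were spread unevenly over the genotypes. Heterozygous 1 to 3 date from 7 March, as does deficient 4 but no wildtype library. Wildtype 1 dates from 29 January, with heterozygous 4, deficient 1 and deficient 2, and wildtype 2 from 1 March, with deficient 3. Heterozygous against wildtype is therefore largely also a comparison of dates. Taf4b encodes a TFIID subunit enriched in gonads, and the design asks how these cells differ without it. The heterozygous and wildtype genotypes are labelled fertile and the deficient one infertile. The labels do not say which part of Taf4b was altered or whether the libraries stem from separate animals, so the p-values reflect only the spread among these samples, which may be technical.

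Initiation begins when eIF2 carries the initiator tRNA to the small ribosomal subunit, where eIF1, eIF1A, eIF3 and eIF5 form a scanning complex. The cap-binding protein eIF4E, the scaffold eIF4G and the helicase eIF4A bring in the mRNA, and eIF5B joins the large subunit. Cells slow the process by phosphorylating eIF2 alpha, which blocks its exchange factor eIF2B, or by letting eIF4E-binding proteins displace eIF4G from the cap. In germ cells these steps matter because many transcripts of meiosis are stored and translated later.

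Library totals ran from 28949924 to 44166320 reads. Taf4b, in CPM (read counts per fixed library size, scaled by the trimmed mean of M-values), stood at 56.1, 62.1, 64.9 and 60.1 CPM (deficient), 144, 223, 195 and 234 CPM (heterozygous) and 152 and 207 CPM (wildtype). Every deficient library lay below every fertile one. Taf4b fell by 1.71 on the log2 scale against heterozygous libraries (adjusted p = 0.0118), and lost that call without any 1 deficient library, without heterozygous replicate 2 or 4 (adjusted p up to 0.0972) and with litter date as a term (adjusted p = 0.111). The germ cell markers Ddx4 and Dazl stood at 696 to 1085 and at 2284 to 2780 CPM. Of 9 supporting cell markers the summed level was 25.6 to 40.6 CPM (deficient), 23.8 to 39.1 CPM (heterozygous) and 15.9 to 40.3 CPM (wildtype). For 9 stromal and mesothelial markers it was 11.4 to 23.2, 12.0 to 23.7 and 16.5 to 22.4 CPM, and for 11 blood and macrophage markers 16.3 to 24.8, 7.29 to 15.3 and 14.2 to 26.8 CPM. Endothelial markers summed to 65.9 to 382 CPM, nearly all of it Pecam1, which germ cells also express, with Cdh5 at no more than 0.236 CPM. Deficient replicates 2 and 4 and heterozygous replicate 3 stood apart in Gm23935, a gene annotated as a miRNA, with 87.4 to 454 CPM against 4146 to 5068 CPM elsewhere.

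The libraries also differed in how far their cells had gone into meiosis. A meiotic score was taken as the mean log2 CPM of 27 meiotic prophase genes minus that of 18 pluripotency and early germ cell genes. Deficient libraries 1 to 4 scored 0.06, 1.18, -2.06 and -0.39, heterozygous libraries 1 to 4 scored -1.98, 2.14, 1.76 and 1.70, and the wildtype libraries -0.20 and 0.18. Deficient replicate 3 and heterozygous replicate 1 were the least advanced, and the other heterozygous libraries the most advanced, so stage and genotype overlapped in part. The score holds no initiation factor gene and was used as a number, never to form groups. The slopes of single genes had genotype as a further term, while ratios of paralogues were correlated with the score over all libraries and again with genotype held. In bulk RNA a lower share of cells at a stage and less RNA per cell cannot be told apart.

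Promoter sequence was taken from RefSeq (GRCm38.p6), which gave a window of 250 bases before to 50 after the start for 43 of the 55 genes. The stretches below are shown because they hold the motifs counted here. A C at the start followed by at least 4 pyrimidines, the beginning of the terminal oligopyrimidine tract found in transcripts under mTOR control, was present in Eif2s3x and Eif3f, or 4.65% of the 43 genes against 2.92% of 11567 tested protein-coding genes. In the 30 bases around these starts, 5′ to 3′, the pyrimidine run from the start is in capitals.
Eif2s3x (chrX:94212642-94212671, minus strand): ggcggctgccgagcattttcCTTTTCTCTC
Eif3f (chr7:108934395-108934424, plus strand): gctcttctgttctaggctctCTCTCTTTCT
The palindrome CACGTG, the E-box bound by MYC and related factors, was in the windows of 10 of 43 genes (23.3%, against 11.3% of the 11567), on either strand alike. Of these, 4 stretches that lie before the start are printed, with each E-box in capitals (Eif5a2 holds 2 of them).
Eif3f (chr7:108934320-108934379, plus strand): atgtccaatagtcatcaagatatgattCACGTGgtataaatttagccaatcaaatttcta
Eif3k (chr7:28981900-28981959, minus strand): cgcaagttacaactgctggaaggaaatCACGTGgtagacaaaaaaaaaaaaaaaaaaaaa
Eif4a1 (chr11:69672580-69672639, minus strand): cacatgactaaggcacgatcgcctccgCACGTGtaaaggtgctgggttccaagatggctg
Eif5a2 (chr3:28781108-28781167, plus strand): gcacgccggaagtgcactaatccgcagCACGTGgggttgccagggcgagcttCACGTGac
The other E-box genes were Eif1b, Eif3a, Eif4e, Eif4g1, Eif4h and Eif5a. A GC box (GGGCGG, both strands) was in 33 windows (76.7%, against 66.9%), CCAAT in 15 (34.9%, against 43.1%), the E2F motif TTCCCGC in 3 (6.98%, against 9.55%), and CNCCTCAG, a motif linked to STRA8, in 3 (6.98%, against 11.1%). A match describes these letters in this window and no more, and no comparison of the shares was tested.

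All but 3 of the genes passed the filter on low counts. Eif5a, the factor that relieves stalled ribosomes, led at 1599.7 ± 258 TPM (a level per transcript length and library size; SD, n = 10), and its lowest library, at 1384 TPM, lay above the highest of the next gene. Eif3g followed at 611 ± 95.5 TPM, the helicase gene Eif4a1 at 545 ± 151 TPM, and the eIF3 genes Eif3m and Eif3i at 469 ± 80.2 TPM and 463 ± 59.5 TPM. Each of these 4 lay within 1 SD of its neighbour in this order, and Eif3m and Eif3i depended on the measure, standing at 331 and 209.9 as scaled reads per kilobase of merged exons. At the low end stood Eif4e3, a cap-binding paralogue, at 11.8 ± 3.62 TPM, and Eif2ak2, the kinase PKR that senses double-stranded RNA, at 6.32 ± 1.104 TPM. Eif4ebp3 was at 0.420 ± 0.373 TPM and Eif4e1b, the oocyte form of the cap-binding protein, had 2 reads in all libraries together. The Y-linked Eif2s3y had no read in any library. These last 3 genes did not pass the filter and were not tested, which left 52 genes. The median over the 55 genes of the mean level was 130 TPM. By role, the medians were highest for the 14 eIF3 genes (329.6 TPM) and lowest for the 4 eIF2 alpha kinases (17.4 TPM).

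**Figure D1:**
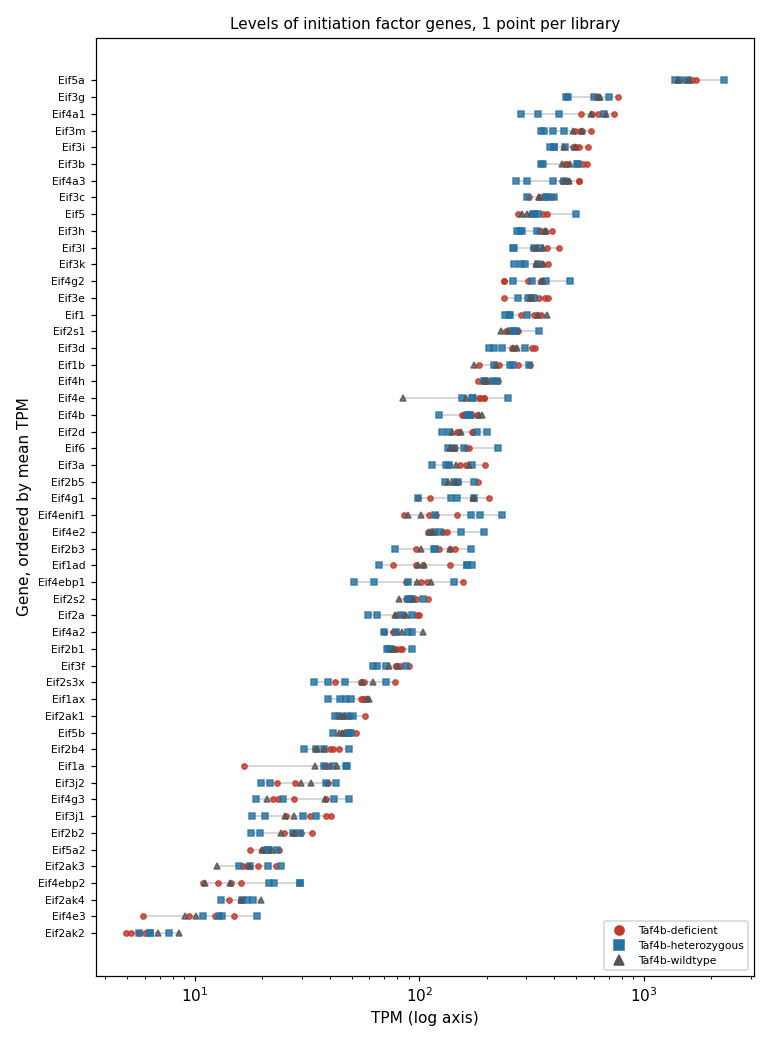
Level of 52 initiation factor genes, in TPM on a log axis, with 1 point per library, the colour and shape giving the genotype and a grey line the range. Eif5a stands alone at the top, and the libraries of the 3 genotypes lie within 1 range for most genes.

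Together the 55 genes took 1.23% to 1.48% of all reads. The share was lowest in heterozygous replicates 2 and 4, which had high meiotic scores, and highest in deficient replicate 3, which had the lowest score. It did not follow the score throughout. Heterozygous replicate 3 (score 1.76) stood at 1.37% and deficient replicate 2 (score 1.18) at 1.40%, above wildtype replicate 2 (score 0.18) at 1.34%. No relation of the share to the score was tested. Between libraries a tested gene varied with a coefficient of variation of 16.3% at the median, from 6.50% for Eif3c, a core subunit of eIF3, to 65.7% for Eif3j2.

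No initiation factor gene differed between genotypes at an adjusted p under 0.05 in any of the 4 comparisons. In deficient against heterozygous libraries 0 of 52 genes were called, where 0.0148% of all 20317 tested genes were (3 genes). Against wildtype 0 of 52 were called (0% of all genes), against the mean of both fertile genotypes 0 of 52 (0.00492%), and in heterozygous against wildtype 0 of 52 (0.00492%). Against wildtype Taf4b itself was thus not called, at a mean of 60.8 CPM (deficient) and 179.7 CPM (wildtype). With 2 wildtype libraries that comparison can miss a difference of this size. Of the 52 genes, 38 lay above 0 against heterozygous libraries, where 44.9% of all genes did. Their median log2 difference was 0.12 against -0.05 over all genes. The medians were 0.10 against wildtype (all genes 0.00) and 0.12 against the fertile mean (all genes -0.01), and -0.12 in heterozygous against wildtype (all genes 0.02). With the meiotic score as a term the medians of the 52 genes were 0.10, 0.07, 0.09 and -0.04 in the same order. These comparisons share libraries, so they are not separate evidence. At an unadjusted p under 0.05 the counts were 10 of 52 genes (19.2%, background 11.9%), 1 (1.92%, background 3.66%), 1 (1.92%, background 4.31%) and 6 (11.5%, background 8.3%) in the same order. The authors' deposited table, whose contrast is not given in the sources used here, listed 52 of the genes, called 0 of them and 3 of all 21049 genes, and gave 41 of the 52 a fold change above 0, with a smallest adjusted p of 0.787. Taf4b stood at -1.66 on the log2 scale in it, so values above 0 there point to higher levels in deficient libraries.

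**Figure D2:**
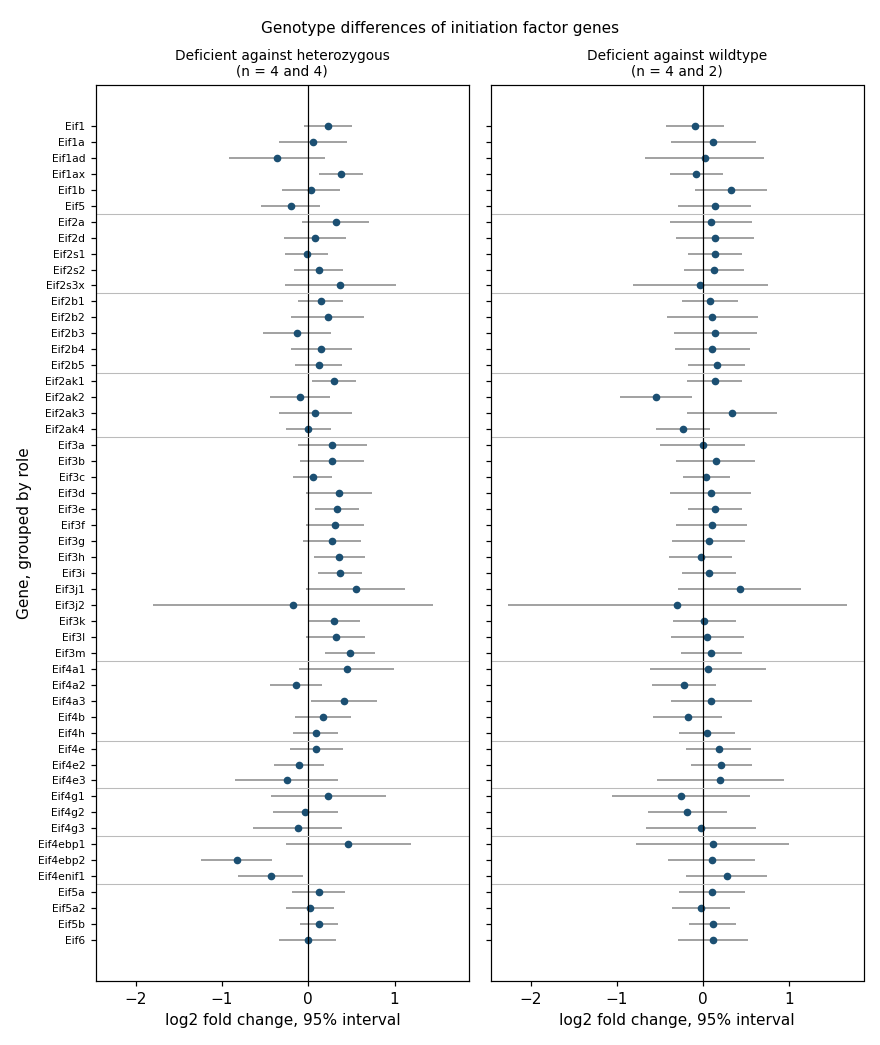
Log2 fold change with its 95% interval from the edgeR fit for the 52 tested genes, grouped by role, in deficient against heterozygous (left) and deficient against wildtype libraries (right). Of the 14 eIF3 genes 13 lie above 0 on the left and 11 on the right, Eif4ebp2 lies lowest on the left, and the intervals on the right nearly all cross 0.

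More genes were called along the meiotic score than between genotypes. Along the score, with genotype held in the model, 13 of 52 were called (25.0%), against 24.8% of all genes, so as a class they were called at the background rate. Of these 3 rose (5.77%, background 12.9%) and 10 fell (19.2%, background 11.9%) toward the meiotic end. The unadjusted count was 23 (44.2%, background 36.5%), and the median slope was -0.06 per score unit against 0.00 over all genes. The rising genes were Eif1ad, Eif4enif1 and Eif2b3, and the falling ones Eif4ebp1, Eif2s3x, Eif4a1, Eif3a, Eif3d, Eif2a, Eif4a3, Eif3l, Eif3b and Eif3f. Deficient replicate 3 and heterozygous replicate 1 held the highest levels of 8 of the 10 falling genes. The calls, more than the slopes, rest on these libraries. Without both, 0 of 52 genes and 0 of all genes were called, while 11 of the 13 slopes kept their sign, among them Eif1ad (0.29), Eif4ebp1 (-0.29) and Eif2s3x (-0.27), and the median slope of the 52 genes was -0.09. The slope of Eif4a1 shrank to -0.11, and those of Eif3f and Eif4enif1 turned (0.0226 and -0.0534). Without heterozygous replicate 1 alone 0 of 52 and 674 of all genes were called, and without deficient replicate 3 alone 8 of 52 and 3353 of all genes. Without heterozygous replicate 3 it was 20 of 52. With litter date as a term 11 of the 13 kept their call. With the level of Gm23935 as a term 24 of the 52 genes were called, and without the 3 libraries low in it 27. Over all genes the calls were 5041 of 20317 in the main fit and at most 6682 in any alternative, these settings included. Whether these higher counts are particular to initiation factor genes was not tested. The endothelial marker sum, nearly all Pecam1, was also highest in these early libraries, at 374 CPM in deficient replicate 3 and 382 CPM in heterozygous replicate 1, and its part was not tested.

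**Figure D3:**
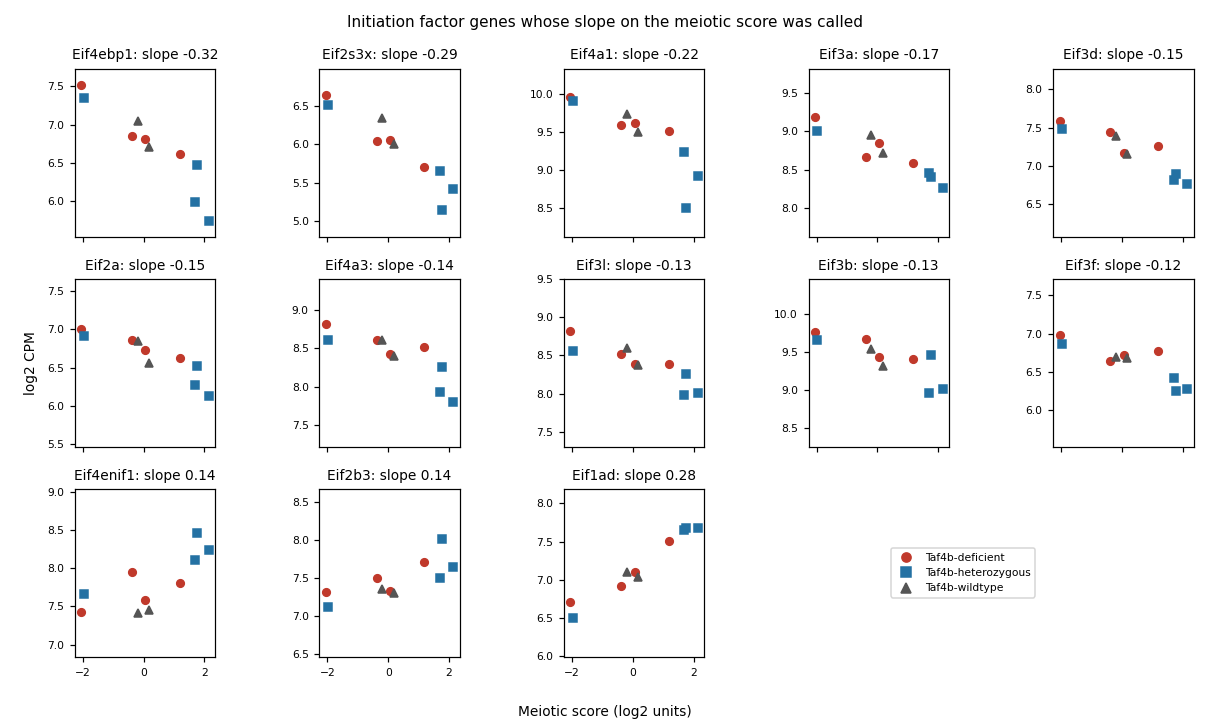
Log2 CPM of the 13 called genes against the meiotic score, 1 point per library, with genotype as colour and shape and the fitted slope in log2 per score unit in each title. Every panel spans the same height, and the least advanced libraries, deficient 3 and heterozygous 1, sit at the left edge of each.

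Eif1ad, listed here with the genes of start codon scanning, had the largest rising slope of that list, 0.28 (SE 0.03, adjusted p = 0.000276) per score unit. It was the only called gene of the 6 there. Eif1ad (ENSMUSG00000024841; chromosome 19, 5366741 to 5371526, plus strand) encodes a protein with an eIF1A-like domain, and its slope does not speak for the scanning factors. It stood at 138, 183, 105 and 121 CPM (deficient 1 to 4), 90.5, 204, 205 and 202 CPM (heterozygous 1 to 4) and 138 and 132 CPM (wildtype 1 and 2). Heterozygous replicates 2 to 4 lay within 202 to 205 CPM and heterozygous replicate 1 at 90.5 CPM, while deficient libraries lay between and stood in the order of their scores. The genotype groups overlapped, and deficient against heterozygous was -0.36 (SE 0.25, 95% interval -0.92 to 0.20, adjusted p = 0.551). Without heterozygous replicate 1 the slope was 0.24 (adjusted p = 0.0584, range 8.47e-12 to 0.603 over the alternatives). The gene shares 13.2% of its 50-base stretches with Banf1 on the other strand, and the strand setting of the counting was not given in the sources used here.

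Eif1ax, the X-linked eIF1A gene, had heterozygous libraries apart from both other genotypes without a call. It stood at 149, 156, 166 and 154 CPM (deficient), 136, 105, 125 and 114 CPM (heterozygous) and 175 and 155 CPM (wildtype). Every deficient and both wildtype libraries lay above every heterozygous one. The log2 difference was 0.38 (SE 0.11, adjusted p = 0.352) for deficient against heterozygous and -0.46 (SE 0.14, adjusted p = 0.276) for heterozygous against wildtype. Its autosomal partner Eif1a stood at 61.8, 59.8, 87.0 and 57.4 CPM (deficient), 77.0, 54.3, 66.7 and 58.5 CPM (heterozygous) and 70.9 and 51.4 CPM (wildtype), a log2 difference of 0.05 against heterozygous. Eif1, which guards start codon choice, averaged 319.7 ± 16.0 CPM over the deficient and 274 ± 39.9 CPM over the heterozygous libraries (SD, n = 4 each), and 340.4 ± 49.4 CPM over the wildtype pair (SD, n = 2). Eif5, which triggers GTP hydrolysis by eIF2, stood at 623 to 1058 CPM, highest in heterozygous replicate 3.

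Of the eIF2 group, the gamma subunit gene Eif2s3x (ENSMUSG00000035150; chromosome X, 94188707 to 94212862, minus strand) fell along the score by 0.29 per unit on the log2 scale (SE 0.04, adjusted p = 0.000642). It stood at 66.4, 52.0, 99.7 and 66.2 CPM (deficient 1 to 4), 91.4, 42.8, 35.3 and 50.2 CPM (heterozygous 1 to 4) and 81.0 and 64.2 CPM (wildtype 1 and 2). The highest values were those of deficient replicate 3 and heterozygous replicate 1, and the lowest those of heterozygous replicates 2 and 3. It shares 34.6% of its 50-base stretches with the predicted gene Gm2223, so its count is uncertain. Its Y-linked copy had no reads, as above. Eif2a, an alternative initiator tRNA carrier, fell along the score by 0.15 (SE 0.03, adjusted p = 0.0106), from 128 and 121 CPM in the least advanced libraries to 69.8, 92.1 and 77.7 CPM in heterozygous replicates 2 to 4. The alpha and beta subunit genes Eif2s1 and Eif2s2 had slopes of -0.02 and -0.01 with 95% intervals of -0.10 to 0.06 and -0.10 to 0.08. In every genotype comparison 0 of the 5 tested genes of this group were called.

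The 5 genes of eIF2B, which recharges eIF2 with GTP, differed little by genotype: their log2 differences ran from -0.13 to 0.22 against heterozygous and from 0.08 to 0.16 against wildtype libraries. Eif2b3, the gamma subunit gene, rose along the score by 0.14 (SE 0.04, adjusted p = 0.0408), with 160.4, 209.9, 159 and 181 CPM (deficient), 139, 199.99, 259 and 180.3 CPM (heterozygous) and 164 and 158 CPM (wildtype). The other 4 had slopes below 0 without a call. In deficient against wildtype, Eif2b5, the catalytic subunit gene, was among 5 of 52 genes whose groups did not overlap (9.62%, background 12.6%). The others were Eif4e, higher in deficient libraries, and Eif2ak2, Eif2ak4 and Eif4a2, lower.

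Among the eIF2 alpha kinases, Eif2ak2 gave the largest difference of any initiation factor gene between deficient and wildtype libraries. It stood at 10.0, 8.31, 10.8 and 9.01 CPM (deficient), 10.3, 9.70, 11.03 and 9.67 CPM (heterozygous) and 14.7 and 13.2 CPM (wildtype). Both wildtype libraries lay above all 8 others, with log2 differences of -0.55 (SE 0.19, adjusted p = 1.000) for deficient and -0.45 (SE 0.19, adjusted p = 0.529) for heterozygous against wildtype, neither called. Eif2ak4, the amino acid sensor GCN2, was likewise highest in wildtype libraries, at 47.6 and 51.7 CPM against 38.4 to 45.1 CPM in the others. Eif2ak3, the endoplasmic reticulum kinase PERK, stood at 36.2, 35.2, 43.0 and 47.1 CPM (deficient), 50.8, 29.8, 32.6 and 39.7 CPM (heterozygous) and 28.1 and 36.0 CPM (wildtype), with the groups overlapping and a slope of -0.13 (SE 0.05, adjusted p = 0.0603). Eif2ak1, the heme-regulated kinase, averaged 89.99 ± 7.10 CPM over the deficient and 73.2 ± 6.95 CPM over the heterozygous libraries (SD, n = 4 each), a log2 difference of 0.30 (SE 0.12, adjusted p = 0.387).

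The eIF3 genes mostly lay on 1 side of 0 in each comparison. In deficient against heterozygous libraries 13 of 14 lay above 0 with a median of 0.31, and all 14 lay below 0 in heterozygous against wildtype with a median of -0.24. Over all genes 44.9% lay above 0 in the first of these comparisons and 52.6% in the second. Heterozygous replicates 2 to 4 were the most advanced libraries, and litter dates differed between the genotypes as given above. The part of stage and of litter date in these signs was not tested. Deficient against wildtype had 11 of 14 above 0 with a median of only 0.07 (all genes 50.64% above 0). Against the fertile mean it was 13 of 14 with a median of 0.19 (all genes 48.45% above 0). Along the score 11 of 14 lay below 0 with a median of -0.09, where 50.07% of all genes lay above 0. Calls numbered 0 of 14 by genotype. Along the score 0 of 14 rose (background 12.9%) and 5 fell (background 11.9%): Eif3a (-0.17, adjusted p = 0.00226), Eif3d (-0.15, 0.00471), Eif3l (-0.13, 0.0121), Eif3b (-0.13, 0.0378) and Eif3f (-0.12, 0.0207). Eif3k (adjusted p = 0.0504) and Eif3m (adjusted p = 0.0520) lay just outside the threshold. Eif3a, the largest subunit and a scaffold of the complex, stood at 459, 385, 581 and 406 CPM (deficient 1 to 4), 512, 307, 338 and 352 CPM (heterozygous 1 to 4) and 496 and 421 CPM (wildtype 1 and 2). Eif3d, which can bind the cap itself, stood at 144, 153, 192 and 174 CPM (deficient), 179, 109, 119 and 113 CPM (heterozygous) and 168 and 143 CPM (wildtype), and shares 37.2% of its 50-base stretches with the overlapping gene Gm17638. Eif3b, another core subunit, ranged from 497 to 866 CPM and Eif3l, a subunit absent from yeast, from 254 to 451 CPM, both highest in deficient replicate 3. Eif3f, whose E-box and pyrimidine start are printed above, stood at 105, 109.6, 127 and 100.3 CPM (deficient), 117, 77.8, 76.3 and 85.5 CPM (heterozygous) and 104 and 102 CPM (wildtype). Eif3c was 1 of 3 subunit genes on the other side, with a slope of 0.04 (95% interval -0.02 to 0.11) and a range of 549 to 657 CPM.

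Eif3m, a subunit of the eIF3 octamer, gave the largest difference from heterozygous libraries within eIF3 apart from Eif3j1. It stood at 358, 354, 389 and 315 CPM (deficient 1 to 4), 315, 226, 242 and 230.0 CPM (heterozygous 1 to 4) and 354 and 309 CPM (wildtype 1 and 2). Every deficient library lay above every heterozygous one, narrowly for deficient replicate 4 over heterozygous replicate 1, and the log2 difference was 0.48 (SE 0.13, 95% interval 0.19 to 0.77, adjusted p = 0.344). Without heterozygous replicate 1 it was 0.65 (adjusted p = 0.0433, range 0.0433 to 0.727 over the alternatives), and Eif3d, Eif3h and Eif4a1 were also called higher in deficient libraries. Calls rose over all genes too in that setting, from 3 of 20317 tested genes with all libraries to 519, which include these 4 of 52. Whether 4 exceeds the background there was not tested. The 5 genes whose groups did not overlap in deficient against heterozygous libraries were Eif1ax, Eif3e, Eif3i and Eif3m, higher, and Eif4ebp2, lower (9.62%, background 5.97%). Against both fertile genotypes 0 of 52 genes had groups apart (background 1.39%). The deficient libraries also had higher summed blood and macrophage markers than the heterozygous ones, at the levels given above and with Hba-a1 and Hbb-bt at 0 in at least 1 library, and the part of these cells in the differences was not tested. With the meiotic score as a term Eif3m differed by 0.39 and Eif4a1 by 0.24 between these groups, neither called.

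**Figure D4:**
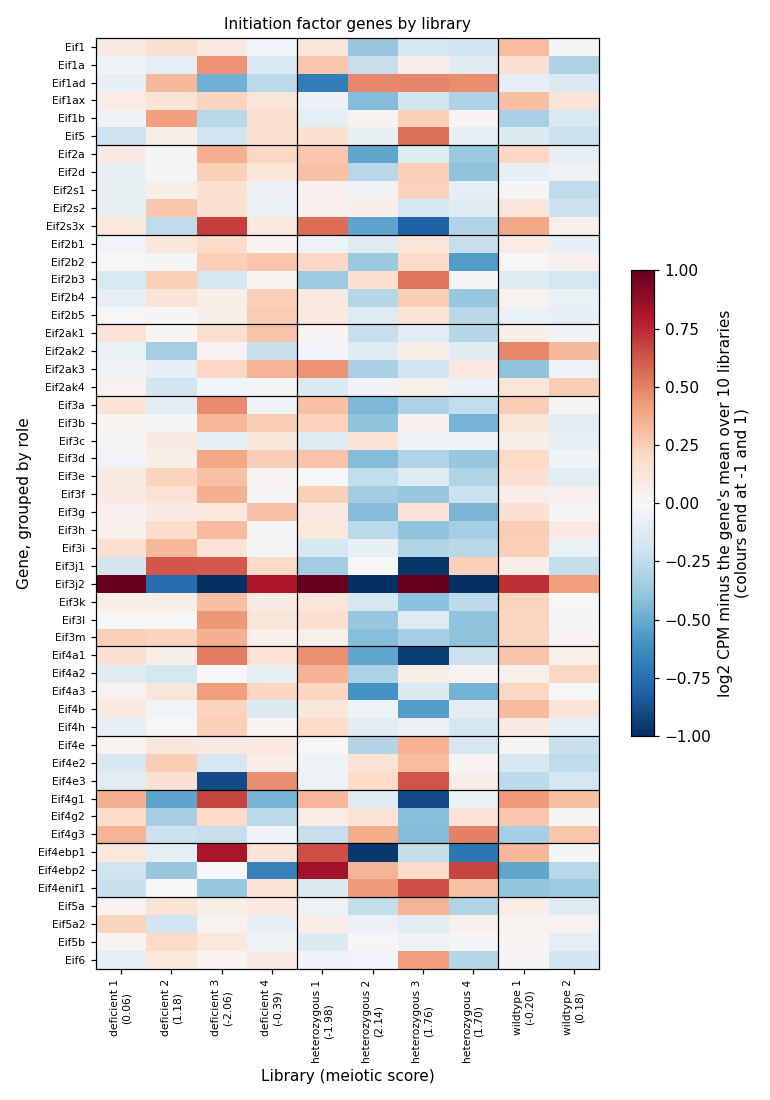
Log2 CPM of each tested gene minus its mean over the 10 libraries, with genes grouped by role and libraries by genotype, the meiotic score in brackets. Deficient 3 and heterozygous 1 are red over most eIF3 rows and heterozygous 2 and 4 are blue, while Eif3j2 shows the strongest colours of any row.

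Eif3j1 and Eif3j2 encode near-identical forms of the loosely bound J subunit and could not be counted apart safely. Eif3j2 stood at 23.0, 6.40, 4.14 and 19.0 CPM (deficient 1 to 4), 25.7, 2.81, 26.99 and 3.86 CPM (heterozygous 1 to 4) and 18.0 and 14.4 CPM (wildtype 1 and 2). Deficient replicates 2 and 3 and heterozygous replicates 2 and 4 lay at 6.40 CPM or below, and the other deficient and heterozygous libraries and both wildtype ones at 14.4 CPM or above. Eif3j1 stood at 42.4, 74.0, 73.7 and 54.9 CPM (deficient), 37.9, 48.1, 24.5 and 56.8 CPM (heterozygous) and 50.4 and 40.9 CPM (wildtype). Their sum was steadier, from 50.9 to 80.4 CPM, while the share of Eif3j2 in it ran from 5.32% to 52.4%. Of Eif3j2's 50-base stretches 91.8% occur in transcripts of other genes (90.8% in Eif3j1), so how reads were split between both is unknown. Their log2 differences against heterozygous libraries, 0.55 (SE 0.26) and -0.18 (SE 0.74), had adjusted p = 0.430 and 0.923.

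The helicase gene Eif4a1 (ENSMUSG00000059796; chromosome 11, 69666936 to 69672423, minus strand) fell along the score by 0.22 per unit (SE 0.05, adjusted p = 0.00757). It stood at 783, 733, 994 and 771 CPM (deficient 1 to 4), 959, 488, 363 and 603 CPM (heterozygous 1 to 4) and 852 and 722 CPM (wildtype 1 and 2). Heterozygous replicate 1, at 959 CPM, lay among the deficient libraries, and the other heterozygous libraries lay below all of them. Deficient against heterozygous was 0.44 (SE 0.25, adjusted p = 0.483), and 0.80 (adjusted p = 0.0469, range 0.0469 to 0.833) without heterozygous replicate 1. It shares 28.4% of its 50-base stretches with other genes, mostly the pseudogene Eif4a-ps4. Its paralogue Eif4a2 stood at 153, 147, 167 and 157 CPM (deficient), 211, 134, 174 and 169 CPM (heterozygous) and 172 and 191 CPM (wildtype), with a slope of -0.09 (SE 0.03, adjusted p = 0.0666) and a log2 difference of -0.14 (95% interval -0.45 to 0.16) against heterozygous libraries. Eif4a3, the helicase of the exon junction complex, fell along the score by 0.14 (SE 0.04, adjusted p = 0.0153), with 452 CPM in deficient replicate 3 and 224 CPM in heterozygous replicate 2. The helicase cofactor genes Eif4b and Eif4h had slopes of -0.08 and -0.08 with adjusted p = 0.199 and 0.0553.

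The ratio of 2 paralogues within a library does not depend on scaling, and 11 pairs had enough reads for it. The log2 ratio of Eif4a2 to Eif4a1 was -2.36, -2.32, -2.58 and -2.29 (deficient), -2.18, -1.87, -1.06 and -1.83 (heterozygous) and -2.31 and -1.92 (wildtype). It was lower in every deficient than in every heterozygous library, by 0.65 (two-sided exact permutation p = 0.0286, the smallest that 4 against 4 libraries allow), and by 0.52 against the 6 fertile libraries (exact permutation p = 0.019). After Benjamini-Hochberg adjustment over 22 tests both exact permutation tests had p = 0.209, and 0 of the 22 were called. Along the score the pair had r = 0.652 and rho = 0.685 over 10 libraries (permutation p = 0.0331 and 0.0341, adjusted 0.0607 and 0.0613).

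The 3 tested cap-binding genes had no call. Eif4e, the main cap-binding protein, stood at 483, 513, 505 and 508 CPM (deficient), 475, 388, 603 and 422 CPM (heterozygous) and 479 and 407 CPM (wildtype). Deficient libraries lay within 483 to 513 CPM, above both wildtype libraries and inside the wider heterozygous range. Eif4e2, which competes for the cap as a repressor, had a slope of 0.07 (SE 0.04, adjusted p = 0.178), and Eif4e3 of 0.15 (SE 0.08, adjusted p = 0.220) at 9.92, 11.9, 5.75 and 14.8 CPM (deficient), 10.4, 12.2, 16.5 and 11.1 CPM (heterozygous) and 8.92 and 9.496 CPM (wildtype). Relative to Eif4e, Eif4e2 rose with the score by both measures and Eif4e3 by r alone: r = 0.735 and rho = 0.818 for Eif4e2 (permutation p = 0.0134 and 0.00599, adjusted 0.0344 and 0.0210), and r = 0.714 and rho = 0.673 for Eif4e3 (0.0137 and 0.0390, adjusted 0.0344 and 0.0613). Without the 2 libraries farthest from the median score r was 0.79 and 0.579.

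The scaffold gene Eif4g1 (ENSMUSG00000045983; chromosome 16, 20668313 to 20692884, plus strand) stood at 478, 258, 597 and 270.4 CPM (deficient 1 to 4), 469, 340.3, 199 and 356 CPM (heterozygous 1 to 4) and 499 and 459 CPM (wildtype 1 and 2). The 3 lowest values, 199, 258 and 270.4 CPM, were those of the libraries low in Gm23935, across both genotypes, and the other 7 libraries lay from 340.3 to 597 CPM. Its slope on the score was -0.22 (SE 0.08, adjusted p = 0.0647), and -0.14 with a call once the level of Gm23935 was a term. Eif4g2, which encodes a cap-independent relative that lacks the eIF4E site, was the most counted initiation factor gene on average, at 1624, 1132, 1637 and 1179 CPM (deficient), 1502, 1563, 1059.9 and 1577 CPM (heterozygous) and 1721 and 1439.6 CPM (wildtype), and was also lowest in these libraries. Eif4g3 stood at 106, 72.6, 71.6 and 81.4 CPM (deficient), 71.6, 109, 62.1 and 119 CPM (heterozygous) and 66.8 and 102 CPM (wildtype). In all, 8 of 52 genes had groups apart between the 3 libraries low in Gm23935 and the other 7 (15.4%, background 8.68%): Eif4g1, Eif4g2 and Eif5a2 were lower, and Eif1b, Eif2b4, Eif4e, Eif5a and Eif6 higher. The part of Gm23935 in these levels was not tested.

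Relative to Eif4g1, both paralogues rose with the score. Eif4g1 was also lowest in the libraries low in Gm23935. Of these, deficient replicate 4 (score -0.39) had log2 ratios of -1.73 for Eif4g3 and 2.125 for Eif4g2. Wildtype replicate 2 (score 0.18) had -2.17 and 1.649. The part of Gm23935 in these ratios was not tested. The log2 ratio of Eif4g3 to Eif4g1 was -2.17, -1.83, -3.06 and -1.73 (deficient), -2.71, -1.65, -1.68 and -1.58 (heterozygous) and -2.90 and -2.17 (wildtype). It correlated with the score at r = 0.837 and rho = 0.806 (permutation p = 0.00275 and 0.00763, adjusted over 11 pairs 0.0235 and 0.0210), and r was 0.658 without the 2 farthest libraries. For Eif4g2 to Eif4g1, r was 0.83 and rho 0.818 (permutation p = 0.00428 and 0.00537, adjusted 0.0235 and 0.0210), and r was 0.709 without them. Eif1b to Eif1 was the fifth called pair, with r = 0.743 and rho = 0.83 (permutation p = 0.0156 and 0.0047, adjusted 0.0344 and 0.0210; r = 0.738 without them). The genotype groups overlapped in Eif4g3 to Eif4g1, which differed by -0.29 between deficient and heterozygous libraries (exact permutation p = 0.457). With litter date held (both sides centred within dates, exact permutation within them) the same 5 pairs were called, with r from 0.73 to 0.885. With genotype held in the same way 0 of 11 pairs were called: over these 5 pairs r was 0.651 to 0.861 and the adjusted exact permutation p 0.0573 to 0.136. With TPM in place of CPM 3 pairs were called, Eif4g3 to Eif4g1, Eif4g2 to Eif4g1 and Eif4a2 to Eif4a1, so the calls of Eif4e2 and Eif4e3 to Eif4e and of Eif1b to Eif1 were lost.

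**Figure D5:**
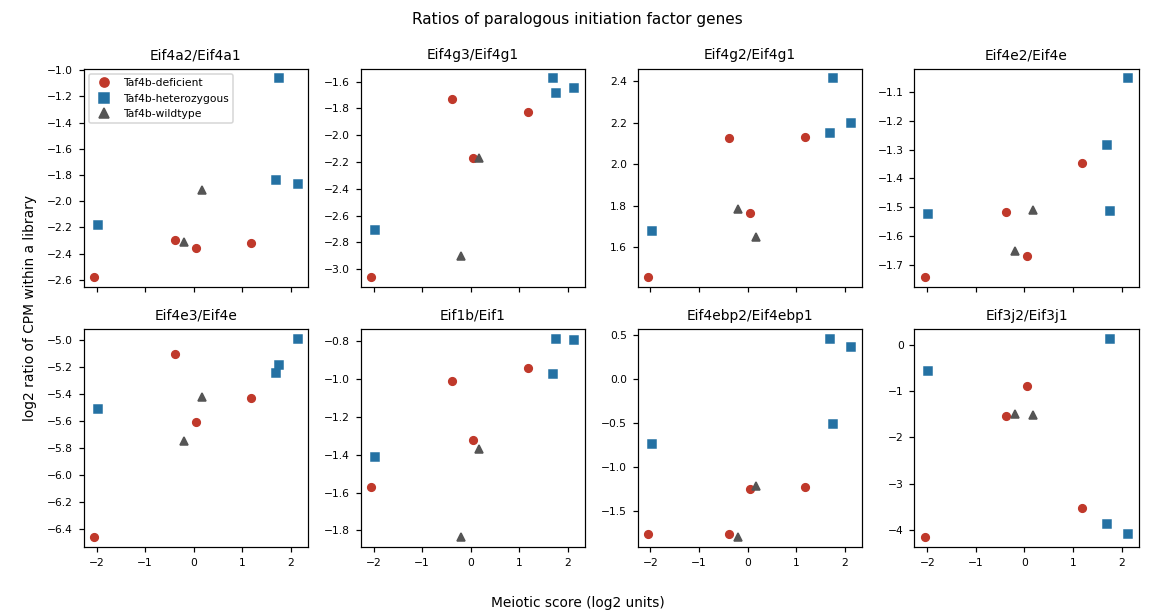
Log2 ratio of CPM within a library for 8 paralogue pairs against the meiotic score, 1 point per library, with genotype as colour and shape. Eif4g3/Eif4g1 and Eif4g2/Eif4g1 rise with the score, in Eif4a2/Eif4a1 and Eif4ebp2/Eif4ebp1 the deficient libraries lie below the heterozygous ones, and Eif3j2/Eif3j1 splits into a high and a low set.

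The eIF4E inhibitors held both the largest genotype difference and the largest slope. Eif4ebp2 (ENSMUSG00000020091; chromosome 10, 61428491 to 61452661, minus strand), the binding protein best known from neurons, stood at 47.5, 42.0, 54.4 and 34.2 CPM (deficient 1 to 4), 97.7, 68.9, 62.4 and 87.1 CPM (heterozygous 1 to 4) and 38.0 and 44.9 CPM (wildtype 1 and 2). Every heterozygous library lay above every deficient and both wildtype libraries. Deficient against heterozygous was -0.83 (SE 0.19, 95% interval -1.24 to -0.42, adjusted p = 0.287) and heterozygous against wildtype 0.93 (SE 0.24, 95% interval 0.41 to 1.45, adjusted p = 0.247), neither called by edgeR. DESeq2 called both (adjusted p = 0.0186 and 0.0188, with ranges of 0.0186 to 0.669 and 0.0188 to 1 over the alternatives). In the second comparison wildtype 1 has its litter date in common with heterozygous 4 alone, and wildtype 2 with no heterozygous library. The deficient and wildtype libraries differed by 0.10 (SE 0.23, 95% interval -0.40 to 0.61). In heterozygous against wildtype 11 of 52 genes had groups apart (21.2%, background 15.8%), Eif4ebp2, Eif4enif1, Eif1b, Eif4e2, Eif4e3 and Eif5 higher and Eif1ax, Eif2ak2, Eif2ak4, Eif3i and Eif4b lower.

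Eif4ebp1 (ENSMUSG00000031490; chromosome 8, 27260329 to 27276674, plus strand), the mTOR-controlled inhibitor, fell along the score by 0.32 per unit (SE 0.05, adjusted p = 0.000720). It stood at 113, 97.9, 184 and 115 CPM (deficient 1 to 4), 163, 53.5, 88.7 and 63.6 CPM (heterozygous 1 to 4) and 132 and 104 CPM (wildtype 1 and 2). Deficient replicate 3 and heterozygous replicate 1 were highest, and heterozygous replicates 2 and 4 lowest. The slope kept its size without heterozygous replicate 1 (-0.32) but not its call (adjusted p = 0.0900, range 4.36e-07 to 0.776). Deficient against heterozygous was 0.47 (SE 0.33, adjusted p = 0.551). The log2 ratio of Eif4ebp2 to Eif4ebp1 was -1.25, -1.22, -1.76 and -1.75 (deficient), -0.74, 0.36, -0.51 and 0.45 (heterozygous) and -1.79 and -1.21 (wildtype), lower in every deficient than in every heterozygous library by 1.39 (exact permutation p = 0.0286, adjusted 0.209). This ratio also rose with the score without a call, at r = 0.661 and rho = 0.721 (permutation p = 0.0399 and 0.0240, adjusted 0.06275 and 0.0528). Without the 2 libraries farthest from the median score r was 0.895, and with genotype held 0.71 (adjusted exact permutation p = 0.0573). Eif4enif1, which carries eIF4E into the nucleus and into RNA granules, rose along the score by 0.14 (SE 0.04, adjusted p = 0.0325). It stood at 193, 224, 173 and 247 CPM (deficient), 203, 302, 351 and 275 CPM (heterozygous) and 171 and 175 CPM (wildtype). Both wildtype libraries lay below every heterozygous one, and heterozygous against wildtype was 0.71 (SE 0.22, adjusted p = 0.290).

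Of the remaining factors none was called. Eif5a stood at 1283, 1388, 1314 and 1346 CPM (deficient), 1216, 1067, 1594 and 1026 CPM (heterozygous) and 1319 and 1156 CPM (wildtype), with a slope of 0.00 (95% interval -0.10 to 0.11). Its paralogue Eif5a2 was steady at 50.1 to 66.8 CPM, and the log2 ratio of Eif5a2 to Eif5a ran from -4.92 to -4.12, with no relation to the score detected (r = -0.088, rho = 0.115, permutation p = 0.809 and 0.76, adjusted 0.89 and 0.928; r = -0.011 without the 2 farthest libraries). Eif5b, the subunit-joining GTPase, stood at 173 to 219 CPM with a slope of 0.03 (95% interval -0.04 to 0.09). Eif6, which keeps the large subunit from joining too soon, stood at 98.9 to 161 CPM and was highest in heterozygous replicate 3.

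Other genes of translation were then examined, and 0 of them were called by genotype. Along the score, where 12.9% of all genes rose and 11.9% fell, of 8 tested elongation factor genes 0 rose and 3 fell: Eef1e1 (-0.24, adjusted p = 0.000955), Eef1g (-0.16, 0.00468) and Eef2 (-0.11, 0.0343). Of 7 termination and recycling genes 3 fell, the release factor genes Gspt1 (-0.16) and Etf1 (-0.13) and the reinitiation factor gene Mcts1 (-0.17). Of 9 genes of the integrated stress response, which eIF2 alpha kinases set off, 4 fell: Asns (-0.21), Trib3 (-0.26), Impact (-0.19) and the transcription factor gene Atf4 (-0.18, adjusted p = 0.0343). Of 13 genes of mTOR and MNK signalling 1 rose, the S6 kinase gene Rps6kb2 (0.20, adjusted p = 0.0120), and 0 fell. Of 6 genes of poly(A)-binding proteins and partners Paip2b rose (0.25) and Pabpc4 fell (-0.26). Of 11 helicases and other helpers Cpeb4 rose (0.46, adjusted p = 0.0464) and Ddx3x, Abcf1, Bzw2 and Cyfip1 fell (from -0.22 to -0.15). As for the initiation factors, 0 of these were called without deficient replicate 3 and heterozygous replicate 1. Of the 11 called initiation factor genes with a promoter window, 3 held an E-box (Eif3a, Eif3f and Eif4a1), against 10 of all 43. A GC box was in 10 of the 11, CCAAT in 4, the E2F motif in 2 and the STRA8-linked motif in 1 (33, 15, 3 and 3 of all 43). The 2 genes with a pyrimidine start both fell along the score, too few to read as a promoter trait. No relation of a motif to the slopes was tested.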

How the data were processed

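Bulk RNA was sequenced from 4 Taf4b-deficient, 4 Taf4b-heterozygous and 2 Taf4b-wildtype samples. The authors' tools were Trim Galore 0.5.0, FastQC 0.11.5, HISAT2 2.1.0, SAMtools 1.9, featureCounts of Subread 1.6.2 and StringTie 1.3.3b on GRCm38, per the submitters' processing notes. For strand setting and annotation release: not given in the sources used here. Counts were used as deposited, and the authors' deposited TPM values gave levels between genes. The deposited DESeq2 table of the authors gives a mean normalized count (a signal), log2 fold changes, standard errors, a score for the test and p-values, per the file headers, for a contrast the header does not name. All 55536 gene identifiers matched GENCODE M21.

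Genes were kept by filterByExpr (20317), scaled by TMM and fitted in edgeR 4.0.16 (R 4.3.3) by quasi-likelihood with 3 genotype groups over all 10 libraries; the slope on the score had genotype as covariate. Genes with a Benjamini-Hochberg adjusted p under 0.05 count as called, and where no tool is named an adjusted p is edgeR's. Comparisons were deficient against heterozygous, wildtype and their equally weighted mean, and heterozygous against wildtype. Ratios of paralogues used exact permutation tests or 100000 permutations (scipy 1.17.1). No 2 libraries matched within sampling noise (chi-square per degree of freedom at least 10.6). Alternatives covered scaling, filter, tool (DESeq2 1.42.0, limma 3.58.1 on log2 TPM with pseudocounts of 1 and 0.1), litter date, replicate number, Gm23935, the score and leaving out libraries. The genes, lists and tests were chosen with earlier results of these data known. The text names the genes called, the 6 largest changes per comparison at a mean of at least 5 CPM, the paralogue pairs, the 5 highest and 5 lowest levels, and up to 4 called genes per list. Genes named for groups that do not overlap, for motifs, for their role, and Gm23935, Cpeb4, Ddx4, Dazl, Pecam1 and Cdh5 are outside that rule and were picked with their values in view. Stretches of 50 bases shared with other transcripts were counted in GENCODE M21. The tests were also run on simulated data with planted changes larger than any seen in the initiation factor genes. That run does not show how well differences of the observed size are found.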

Additional observations from a re-analysis of the deposited data

Results flagged for a closer look

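In groups of 4 libraries, 104 sets of values of tested genes were screened for a library far from the other 3, and 5 were found where chance at 1 in 20 gives 5.2. Heterozygous replicate 1 stood apart in Eif1ad, at 90.5 CPM against 202 to 205 CPM, and in Eif3d, at 179 CPM against 109 to 119 CPM. Deficient replicate 3 stood apart in Eif1a, at 87.0 CPM against 57.4 to 61.8 CPM, and in Eif3k, at 174 CPM against 147 to 149 CPM. For Eif1a the deposited TPM of that library went the other way, at 16.6 TPM against 37.7 to 39.5 TPM in the other deficient libraries, and the cause was not tested. Heterozygous replicate 3 stood apart in Eif4g2, at 1059.9 CPM against 1502 to 1577 CPM.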

How the results depend on the processing

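No initiation factor gene was called by genotype in edgeR under any scaling, filter or added term, and without heterozygous replicate 1 there were 4, among 519 of all genes (0 without each other library). DESeq2 called 1 in deficient against heterozygous and 1 in heterozygous against wildtype, Eif4ebp2 in both. Over all genes, deficient against heterozygous gave 6 calls with DESeq2 size factors and with upper quartile scaling, 14 without the filter, 0 with litter date as a term, 17 with the level of Gm23935 as a term (an alternative chosen after seeing the data), 97 without the 3 libraries low in it, 7 with the score as a term, 224 with DESeq2, and 100, 87 and 94 on log2 TPM (pseudocounts 1, 0.1 and 1 without filter). Deficient against wildtype gave 1 without the filter, 1 with the score, 1 with DESeq2 and 10 on unfiltered TPM. Deficient against fertile gave 0 with litter date, with Gm23935, without those 3 libraries and on TPM, and 8 with DESeq2. Heterozygous against wildtype gave 268 without the filter, 0 with litter date, with Gm23935 and on filtered TPM, 14 on unfiltered TPM, 186 without those 3 libraries, 147 with only these groups, 3 with the score and 488 with DESeq2. The cause of these shifts was not tested.

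Along the score the 13 initiation factor calls became 24 with Gm23935 as a term, 27 without the 3 libraries low in it, 0 without both libraries farthest from the median score, and 8, 8 and 5 on TPM, and over all genes 0 without those farthest and 3071 on unfiltered TPM. The count over all genes was 5041 in the main fit and at most 6682 over the alternatives. Leaving out 1 library gave 0 to 519 genes in deficient against heterozygous, 0 to 1 against wildtype and against fertile, 0 in heterozygous against wildtype, 674 to 5749 along the score, and 0 to 20 initiation factor genes along the score. Samples with the same replicate number did not deviate together (r from -0.421 to 0.382 between deficient and heterozygous libraries). With the replicate block 4 initiation factor and 1368 genes were called along the score, 0 genes in deficient against heterozygous, in deficient against fertile and in heterozygous against wildtype, and the slope of Eif3j2 was 0.0089. Other signs turned for Eif4e3 in heterozygous against wildtype with litter date (-0.13), for Eif3f (0.0226) and Eif4enif1 (-0.0534) without the farthest libraries, and for Eif3j2 in deficient against wildtype on TPM (0.0108, 0.0102 and 0.0108). Leaving out 1 library moved the slope of Eif3j2 from -0.56 to 0.16, its difference from wildtype from -0.72 to 0.0056, the ratio of Eif3j2 to Eif3j1 from -1.09 to 0.32, that of Eif4g3 to Eif4g1 against fertile libraries from -0.24 to 0.20, and Taf4b in heterozygous against wildtype from -0.0557 to 0.34. The median level was 96.1 as reads per kilobase, and of the paralogue pairs 3 were called along the score on TPM and 0 with genotype held, the latter chosen after seeing the data.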
